A study of Mus musculus with 8 samples.

Results

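The 43 genes described here encode the contractile apparatus of skeletal muscle and the factors that set up muscle cells, and were taken by symbol from a fixed list of names. All 43 of the 43 names had a probe set annotated to that gene alone, out of 19938 genes with such a probe set, and each of the 43 was read by exactly 1 probe set. The list was proposed after earlier results of these arrays were known. For the 43 genes the difference between flight and ground-based arrays is therefore a description, and no test of it is used as support. Expression was measured on 8 arrays of bone marrow stromal cells, which attach to plastic and give rise to osteoblasts, chondrocytes and adipocytes, flushed from the femurs and tibiae of C57BL/6 mice aged 6 to 8 weeks. In all 8 samples the cells sat on Skelite, a calcium phosphate scaffold, and they received either growth medium or osteoinductive medium, which directs stromal cells towards bone formation. Each of the 2 media was measured once in each of 4 conditions. The microgravity samples flew in automated hardware in the KUBIK incubator, and the centrifuge samples flew in the same incubator and hardware on a 1g centrifuge. The ground samples were kept at normal gravity in incubation units worked by hand, and the laboratory samples at normal gravity in 24-well culture dishes. Flight, automated hardware and everything else that separates the flown from the ground-based cultures cannot be told apart. For the centrifuge samples the gravity field says microgravity, and the osteoinductive one is described once as being in growth medium. Groups follow the titles, so a wrong title would change the results that use those arrays. Whether each array had its own culture or mouse is not said, so the spread behind each p-value is that of 8 arrays and could be technical.

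Skeletal muscle forms when Pax7-positive progenitors switch on Myf5 and Myod1, and then Myog and Myf6, a family of basic helix-loop-helix factors that bind E-boxes together with E-proteins such as Tcf3 and act with MEF2 proteins. The cells fuse into myotubes and first build sarcomeres from embryonic and perinatal myosin (Myh3, Myh8), cardiac actin (Actc1), embryonic light chain (Myl4) and cardiac troponin T (Tnnt2). Adult fibres replace these with Myh1, Myh2 or Myh4, with skeletal actin (Acta1), with Myl1 and with the skeletal troponins T (Tnnt1, Tnnt3), and exchange the gamma subunit of the acetylcholine receptor (Chrng) for epsilon (Chrne). Bone marrow stroma is not a skeletal muscle tissue, and smooth muscle actin and its relatives are the contractile genes usually seen in cultured stromal cells.

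Promoters of 6 members are printed first, because these genes span the results: Myh8, Acta1 and Actc1 have the largest flight differences, Myh4 stayed dim on all arrays, Chrna1 is the member that differed most by medium, and Myog is a myogenic factor. Each run is the 250 bases upstream of the RefSeq start on assembly GRCm38.p6, read 5′ to 3′ on the gene's strand, and capitals mark matches to an E-box (CANNTG), to the MEF2 consensus or to the CArG box bound by serum response factor.
Myh8 (chr11:67276874-67277123, plus strand): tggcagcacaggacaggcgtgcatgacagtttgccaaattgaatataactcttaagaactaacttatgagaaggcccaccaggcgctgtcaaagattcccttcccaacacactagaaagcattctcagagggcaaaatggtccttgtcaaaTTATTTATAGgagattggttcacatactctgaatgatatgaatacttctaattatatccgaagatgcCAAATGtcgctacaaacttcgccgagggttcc
Acta1 (chr8:123894776-123895025, minus strand): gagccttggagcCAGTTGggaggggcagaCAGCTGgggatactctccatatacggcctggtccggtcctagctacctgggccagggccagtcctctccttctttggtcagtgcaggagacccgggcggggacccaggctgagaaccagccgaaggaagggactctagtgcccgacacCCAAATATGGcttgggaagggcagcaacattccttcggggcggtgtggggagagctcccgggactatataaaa
Actc1 (chr2:114052876-114053125, minus strand): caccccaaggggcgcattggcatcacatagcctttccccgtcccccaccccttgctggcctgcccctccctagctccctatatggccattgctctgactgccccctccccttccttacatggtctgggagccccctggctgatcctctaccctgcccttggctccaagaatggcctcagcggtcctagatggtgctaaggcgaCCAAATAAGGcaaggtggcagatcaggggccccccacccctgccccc
Myh4 (chr11:67237562-67237811, plus strand): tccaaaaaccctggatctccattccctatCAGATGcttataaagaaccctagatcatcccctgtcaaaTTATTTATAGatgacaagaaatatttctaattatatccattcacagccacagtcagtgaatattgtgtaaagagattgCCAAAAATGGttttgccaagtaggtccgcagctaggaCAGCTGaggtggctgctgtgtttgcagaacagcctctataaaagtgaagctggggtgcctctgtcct
Chrna1 (chr2:73580339-73580588, minus strand): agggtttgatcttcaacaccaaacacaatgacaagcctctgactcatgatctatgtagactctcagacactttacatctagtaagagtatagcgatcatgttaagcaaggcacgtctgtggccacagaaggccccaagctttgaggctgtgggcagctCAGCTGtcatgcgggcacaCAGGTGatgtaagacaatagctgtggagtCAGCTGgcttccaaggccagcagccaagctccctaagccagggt
Myog (chr1:134289754-134290003, plus strand): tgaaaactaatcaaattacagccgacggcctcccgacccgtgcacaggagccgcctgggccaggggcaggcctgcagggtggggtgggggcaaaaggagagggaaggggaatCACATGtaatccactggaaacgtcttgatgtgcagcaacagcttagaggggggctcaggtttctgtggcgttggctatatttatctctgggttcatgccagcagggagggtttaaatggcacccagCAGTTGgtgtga

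A promoter was listed by RefSeq for 35 of the 43 genes, 38 promoters in all because some genes have several starts. None was listed for Cacng1, Neb, Tnni2, Myod1, Chrnd, Actn3, Tnnt3 and Myf6. An E-box stood in 30 of the 38, 78.9%, against 66.2% of the other 32813 promoters of the same length, and the E-box form CAGCTG, which is contained in CANNTG, in 17 of 38, 44.7% against 13.0%. A MEF2 match stood in 5 of 38, 13.2% against 2.91%, and a CArG match in 3 of 38, 7.89% against 1.46%. The MEF2 matches of Myh1, Myh4 and Myh8, neighbours on chromosome 11, have the same letters. The others are those of Pgam2 and Ttn. The 2 windows of Tnni1 overlap and share a CAGCTG match, which was counted in both. The 2 windows of Myh7 overlap and share an E-box, also counted in both. The gene's strand was searched, and because each pattern reads the same on the other strand, this covers both. These are letter matches in a short window and were not tested as binding sites.

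Most sarcomere genes read brighter on all 4 flight arrays than on any of the 4 ground-based arrays, and the myogenic transcription factors did not. All values that follow are log2 intensities. Differences are flight minus ground-based means on that scale from a limma fit with medium as a covariate. SE is limma's moderated standard error, which combines a gene's own spread (5 residual degrees of freedom) with that of all genes. For 29 of the 43 genes every flight array lay above every ground-based array, where 11.8% of all genes did so, and for none did every flight array lie below, where 11.7% of all genes did. At an adjusted p of 0.05 over all 19938 genes, 28 of the 43 passed as higher and none as lower, beside 11.6% of all genes passing as higher and 16.2% as lower. Since the list was chosen with this contrast in view, nothing is read from these counts. The same holds for the counts without overlap given below for each role, which stand beside the same 11.8% of all genes. The difference was above 0 in 40 of 43 genes, against 46.1% of all genes, and above 1 in 15 of 43, against 2.11%. The median difference was 0.54, with a range from −0.05 to 2.46, while the median over all genes was −0.02. Summed over the 43 genes, the linear intensity was 7518 to 8049 on the ground-based arrays and 14566 to 18617 on the flight arrays. In RNA from a whole culture, a change in the share of cells of a type and a change in RNA per cell cannot be told apart.

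**Figure D1:**
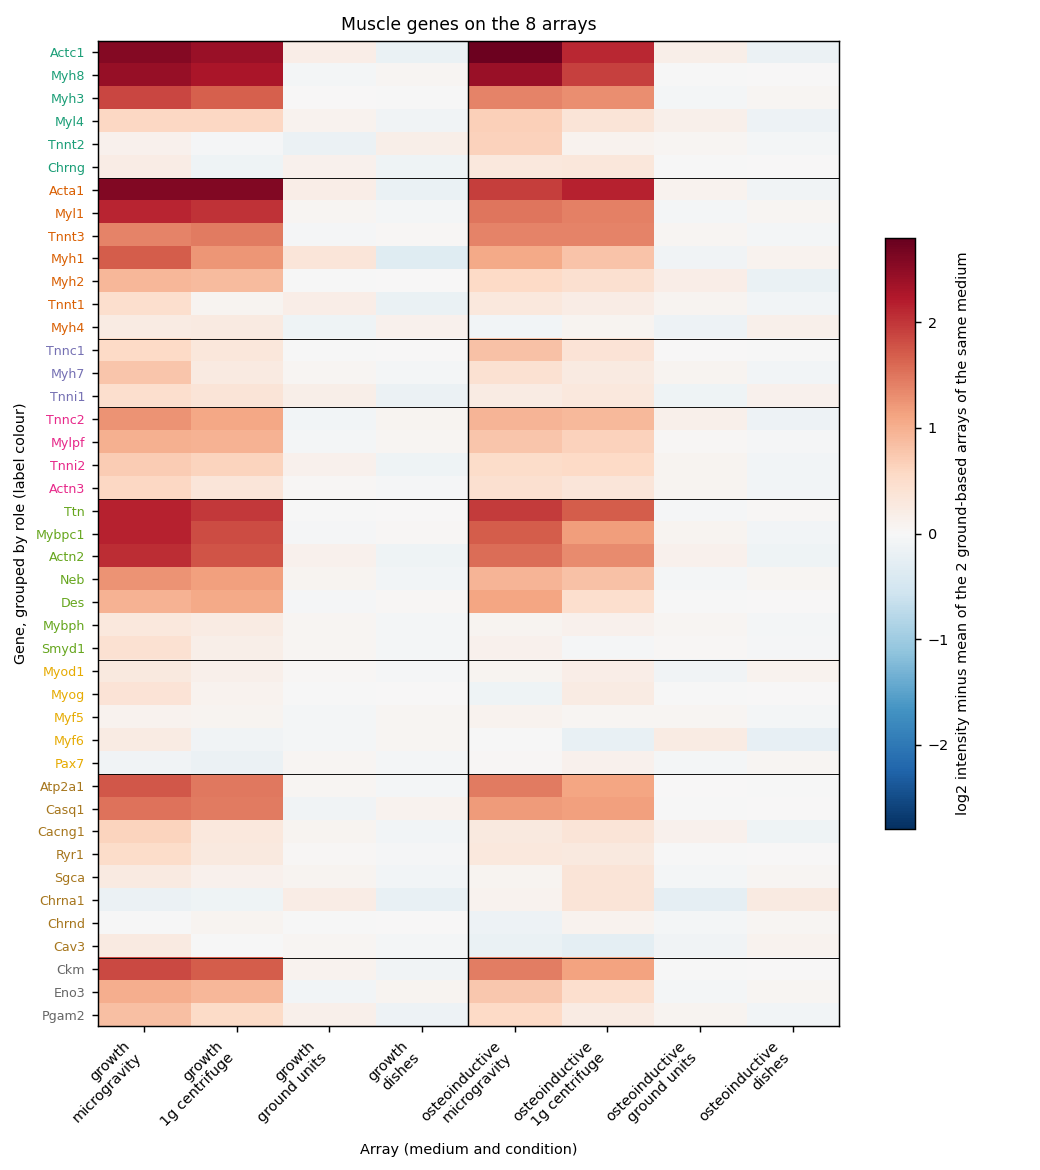
Heat map of the 43 genes (rows, grouped by role) on the 8 arrays (columns), coloured by the log2 intensity minus the mean of the 2 ground-based arrays of the same medium. Actc1, Myh8, Acta1, Ttn, Atp2a1 and Ckm, among others, are red on all 4 flight arrays, and the 5 myogenic factors stay near 0.

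The developmental isoforms split into genes with large differences and genes with little. Actc1, the actin of embryonic muscle and of heart, read 10.83 and 10.68 in growth medium and 11.00 and 10.38 in osteoinductive medium on the flight arrays, the first value of each pair being microgravity and the second the centrifuge. On the ground-based arrays Actc1 read 8.46 and 8.08 in growth medium and 8.42 and 8.11 in osteoinductive medium, the first value of each pair being the ground units and the second the dishes, so the groups were far apart and the difference was 2.46 (SE 0.14), 5.48-fold. Myh8, the perinatal myosin heavy chain, read 10.24 and 10.09 in growth medium and 9.92 and 9.43 in osteoinductive medium in flight. Its ground-based values were 7.74 and 7.86 in growth medium and 7.49 and 7.52 in osteoinductive medium, with no overlap and a difference of 2.27 (SE 0.11), 4.81-fold. Myh3, the embryonic heavy chain, read 8.51 and 8.30 in growth medium and 8.03 and 7.94 in osteoinductive medium in flight against 6.64 and 6.62 in growth medium and 6.59 and 6.70 in osteoinductive medium on the ground-based arrays, a difference of 1.56 (SE 0.10). All 4 flight values of each of these 3 genes were above all 4 ground-based ones.

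Myl4, the embryonic essential light chain, showed a smaller separation, with flight values of 7.95 and 7.94 in growth medium and 7.88 and 7.58 in osteoinductive medium and ground-based values of 7.48 and 7.26 in growth medium and 7.36 and 7.09 in osteoinductive medium, a difference of 0.54 (SE 0.10). Tnnt2, the troponin T of embryonic muscle and heart, read 8.46 and 8.29 in growth medium and 8.85 and 8.31 in osteoinductive medium in flight and 8.17 and 8.49 in growth medium and 8.25 and 8.16 in osteoinductive medium on the ground-based arrays. The growth-medium dishes were above 3 of the 4 flight arrays for Tnnt2, so the groups overlapped, and the difference was 0.21 (SE 0.13). Chrng, the fetal acetylcholine receptor subunit, read 7.39 and 7.07 in growth medium and 7.41 and 7.44 in osteoinductive medium in flight and 7.30 and 7.06 in growth medium and 7.12 and 7.14 in osteoinductive medium on the ground-based arrays, again with overlap and a difference of 0.17 (SE 0.10). Over the 6 developmental genes the median difference was 1.05, and 4 of 6 had no overlap between flight and ground-based arrays.

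Among the adult counterparts, Acta1, the actin of mature skeletal muscle, had the largest difference. It read 10.87 and 10.89 in growth medium and 10.16 and 10.40 in osteoinductive medium in flight and 8.46 and 8.11 in growth medium and 8.33 and 8.13 in osteoinductive medium on the ground-based arrays, a difference of 2.32 (SE 0.13), 5.00-fold. Myl1, the essential light chain of fast fibres, read 9.02 and 8.92 in growth medium and 8.56 and 8.49 in osteoinductive medium in flight against 6.95 and 6.84 in growth medium and 7.02 and 7.12 in osteoinductive medium, a difference of 1.77 (SE 0.12). Tnnt3, the fast troponin T, read 10.54 and 10.60 in growth medium and 10.46 and 10.46 in osteoinductive medium in flight and 9.13 and 9.17 in growth medium and 9.11 and 9.02 in osteoinductive medium on the ground-based arrays, a difference of 1.41 (SE 0.07). For all 3 genes every flight array lay above every ground-based array.

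Myh1, the heavy chain of type 2X fibres, was dim on the ground-based arrays, at 6.24 and 5.56 in growth medium and 6.07 and 6.26 in osteoinductive medium, and read 7.59 and 7.14 in growth medium and 7.23 and 6.96 in osteoinductive medium in flight, a difference of 1.20 (SE 0.16). Its mean over the 8 arrays lay below 7.14, the 40th percentile of all probe sets. Myh2, the type 2A heavy chain, read 7.90 and 7.86 in growth medium and 7.65 and 7.53 in osteoinductive medium in flight and 6.96 and 6.99 in growth medium and 7.28 and 6.89 in osteoinductive medium on the ground-based arrays, a difference of 0.70 (SE 0.11) without overlap. Myh4, the type 2B heavy chain that dominates the fastest mouse fibres, read 6.56 and 6.57 in growth medium and 6.54 and 6.69 in osteoinductive medium in flight and 6.20 and 6.45 in growth medium and 6.48 and 6.76 in osteoinductive medium on the ground-based arrays. Its groups overlapped, its difference was 0.12 (SE 0.10), and it was among the dim genes on all 8 arrays, as set out with the myogenic factors. Tnnt1, the slow troponin T, read 7.58 and 7.20 in growth medium and 7.40 and 7.32 in osteoinductive medium in flight and 7.30 and 6.91 in growth medium and 7.20 and 7.03 in osteoinductive medium on the ground-based arrays, with overlap and a difference of 0.26 (SE 0.11). The 7 adult genes had a median difference of 1.20, and 5 of 7 had no overlap.

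Large differences were found among both fetal and adult members of these families. For actin, the difference of the fetal form Actc1, 2.46 (SE 0.14), and that of the adult form Acta1, 2.32 (SE 0.13), were within 1 SE of each other. For essential light chains the adult Myl1, at 1.77, exceeded the embryonic Myl4, at 0.54. For troponin T the adult fast Tnnt3, at 1.41, exceeded the fetal Tnnt2, at 0.21. In the heavy chains the differences were 2.27 for perinatal Myh8, 1.56 for embryonic Myh3, 1.20 for Myh1, 0.70 for Myh2 and 0.12 for Myh4. No order is read from them, because Myh3 and Myh1 on the 4 ground-based arrays and Myh4 on all 8 lay in the range of dim probe sets, where a difference is understated. The adult receptor subunit Chrne differed by 0.15 (SE 0.09) and the fetal Chrng by 0.17 (SE 0.10), both of little size. The difference between the fetal and adult groups was not tested. Actins and myosin heavy chains are close relatives in sequence, and how far one gene's RNA binds the probes of another was not tested, because probe sequences were not used here.

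**Figure D2:**
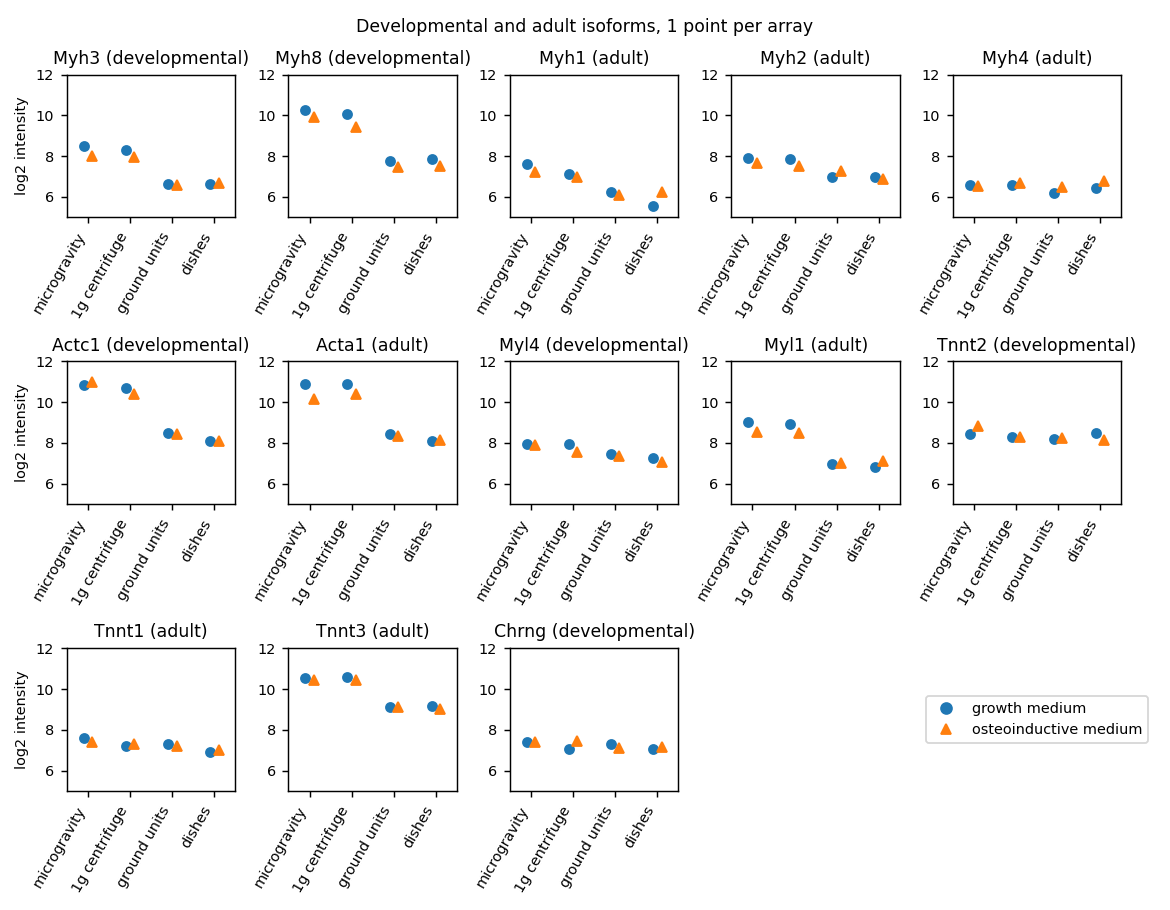
Log2 intensity of each developmental isoform and its adult counterparts on the 8 arrays, by condition, with circles for growth medium and triangles for osteoinductive medium. Among others Actc1, Myh8, Myh3, Acta1, Myl1 and Tnnt3 separate flight from ground-based arrays, whereas Tnnt2, Tnnt1, Myh4 and Chrng overlap.

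The heavy chain genes other than Myh7 are neighbours on chromosome 11, where the RefSeq order of protein-coding genes is Myh3, Myh2, Myh1, Myh4 and Myh8. Along this order the differences were 1.56, 0.70, 1.20, 0.12 and 2.27. The dimness of Myh4 on all 8 arrays, and of Myh3 and Myh1 on the ground-based arrays, limits any comparison along the cluster. The slow heavy chain Myh7 differed by 0.43.

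The 3 slow-fibre and 4 fast-fibre genes grouped here read higher in flight. Other fibre-type genes were grouped with the adult counterparts, of which Tnnt1 and Myh4 overlapped and Myh1, Myh2, Myl1 and Tnnt3 did not. Tnnc1, the calcium-binding troponin of slow and heart muscle, read 9.12 and 8.88 in growth medium and 9.33 and 8.89 in osteoinductive medium in flight and 8.54 and 8.58 in growth medium and 8.53 and 8.50 in osteoinductive medium on the ground-based arrays, a difference of 0.52 (SE 0.10). Myh7, the slow and cardiac heavy chain, read 8.36 and 7.84 in growth medium and 8.03 and 7.86 in osteoinductive medium in flight against 7.65 and 7.54 in growth medium and 7.69 and 7.51 in osteoinductive medium, a difference of 0.43 (SE 0.11). Tnni1, the slow inhibitory troponin, read 7.76 and 7.65 in growth medium and 7.57 and 7.62 in osteoinductive medium in flight against 7.45 and 7.13 in growth medium and 7.22 and 7.46 in osteoinductive medium, a difference of 0.34 (SE 0.10). All 3 had no overlap, by a narrow margin for Tnni1.

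Tnnc2, the fast calcium-binding troponin, read 9.19 and 9.01 in growth medium and 8.88 and 8.83 in osteoinductive medium in flight and 7.84 and 8.02 in growth medium and 8.07 and 7.78 in osteoinductive medium on the ground-based arrays, a difference of 1.05 (SE 0.10). Mylpf, the regulatory light chain of fast fibres, read 7.94 and 7.93 in growth medium and 7.64 and 7.51 in osteoinductive medium in flight against 6.89 and 7.01 in growth medium and 6.90 and 6.83 in osteoinductive medium, a difference of 0.85 (SE 0.09). Actn3, the alpha-actinin of fast fibres, had the smallest difference of the 4 fast genes, 0.42 (SE 0.08), from 7.62 and 7.38 in growth medium and 7.49 and 7.38 in osteoinductive medium in flight and 7.07 and 7.02 in growth medium and 7.12 and 6.98 in osteoinductive medium on the ground-based arrays. The fourth, the fast inhibitory troponin Tnni2, differed by 0.60 (SE 0.09). The medians were 0.43 over the 3 slow genes, from 0.34 to 0.52, and 0.73 over the 4 fast genes, from 0.42 to 1.05. None of the 7 overlapped. No order between slow and fast fibres is read from these medians: Mybpc1, the slow myosin-binding protein C, differed by 1.71 and its fast relative Mybpc2, from the further muscle genes, by 0.33.

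Among the giant, Z-disc and myosin-binding proteins, Ttn, the spring that spans the sarcomere from Z-disc to M-line, read 9.13 and 8.97 in growth medium and 8.86 and 8.60 in osteoinductive medium in flight and 6.98 and 6.99 in growth medium and 6.87 and 6.94 in osteoinductive medium on the ground-based arrays, a difference of 1.95 (SE 0.09), 3.86-fold. Mybpc1, the slow myosin-binding protein C, read 9.20 and 8.86 in growth medium and 8.89 and 8.37 in osteoinductive medium in flight against 7.01 and 7.07 in growth medium and 7.27 and 7.12 in osteoinductive medium, a difference of 1.71 (SE 0.14). Actn2, the Z-disc actinin, differed by 1.68 (SE 0.12), Neb, which runs along the thin filament, by 1.05 (SE 0.09) and the intermediate filament Des by 0.90 (SE 0.12). These 5 genes had no overlap. Mybph, a relative of myosin-binding protein C, differed by 0.18 (SE 0.08). Smyd1, a methyltransferase and partner of myosin folding, read 7.58 and 7.32 in growth medium and 7.33 and 7.18 in osteoinductive medium in flight and 7.20 and 7.11 in growth medium and 7.24 and 7.18 in osteoinductive medium on the ground-based arrays, a difference of 0.17 (SE 0.09) with overlap.

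The myogenic transcription factors did not separate flight from ground-based arrays. Pax7, the progenitor factor, read 7.95 and 7.89 in growth medium and 8.02 and 8.10 in osteoinductive medium in flight and 8.10 and 7.99 in growth medium and 7.94 and 8.04 in osteoinductive medium on the ground-based arrays, a difference of -0.03 (SE 0.08). Myf5, the earliest of the family in the embryo, read 6.42 and 6.39 in growth medium and 6.49 and 6.46 in osteoinductive medium in flight and 6.26 and 6.37 in growth medium and 6.46 and 6.33 in osteoinductive medium on the ground-based arrays, a difference of 0.09 (SE 0.08). Myod1, which can turn fibroblasts into muscle cells, read 7.98 and 7.86 in growth medium and 7.77 and 7.87 in osteoinductive medium in flight and 7.75 and 7.68 in growth medium and 7.58 and 7.79 in osteoinductive medium on the ground-based arrays, a difference of 0.17 (SE 0.08). For all 3 the flight and ground-based ranges overlapped.

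Myog, the factor of terminal differentiation, read 6.98 and 6.70 in growth medium and 6.66 and 7.01 in osteoinductive medium in flight and 6.59 and 6.60 in growth medium and 6.79 and 6.79 in osteoinductive medium on the ground-based arrays, a difference of 0.15 (SE 0.10). Myf6, which is kept on in mature fibres, read 6.18 and 5.85 in growth medium and 6.04 and 5.84 in osteoinductive medium in flight and 5.88 and 6.00 in growth medium and 6.27 and 5.83 in osteoinductive medium on the ground-based arrays, a difference of -0.02 (SE 0.11). None of the 5 factors passed the threshold in any of the 5 comparisons, and the median difference was 0.09. As a yardstick of dim signal, the 95th percentile of 1027 olfactory receptor probe sets, which are expected at or near background, was 7.07 to 7.33 across arrays. Myf5, Myog and Myf6 stayed below it on all 8 arrays, together with Myh4 and Chrnd. On the ground-based arrays 11 of the 43 genes were below it on all 4 arrays and 21 above it on all 4, and on the flight arrays 5 and 32. The label of the list as contractile and myogenic genes thus covers a contractile part most of which read higher in flight and a regulatory part, dim on all arrays for 3 of its 5 genes, for which no difference was detected.

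Of the genes for excitation and calcium, Atp2a1, the calcium pump of the fast sarcoplasmic reticulum, read 9.42 and 9.16 in growth medium and 9.11 and 8.77 in osteoinductive medium in flight and 7.72 and 7.63 in growth medium and 7.68 and 7.65 in osteoinductive medium on the ground-based arrays, a difference of 1.45 (SE 0.11). Casq1, the calcium store protein of that reticulum, read 8.46 and 8.40 in growth medium and 8.12 and 8.08 in osteoinductive medium in flight against 6.85 and 7.05 in growth medium and 6.91 and 6.94 in osteoinductive medium, a difference of 1.33 (SE 0.09). The other reticulum and T-tubule genes had smaller differences, 0.33 (SE 0.08) for Ryr1, the calcium release channel, and 0.38 (SE 0.10) for Cacng1, a subunit of its voltage sensor. Chrnd, a subunit of the muscle acetylcholine receptor, read 6.85 and 6.93 in growth medium and 6.77 and 7.01 in osteoinductive medium in flight and 6.84 and 6.87 in growth medium and 6.86 and 6.96 in osteoinductive medium on the ground-based arrays, a difference of 0.01 (SE 0.08). Chrna1, which carries the ligand-binding sites of that receptor, differed by 0.04 (SE 0.14), caveolin Cav3 by -0.05 (SE 0.10) and sarcoglycan Sgca by 0.21 (SE 0.09). The 8 genes had a median of 0.27, and 5 of 8 had no overlap.

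The 3 muscle enzymes all read higher in flight without overlap. Ckm, the muscle creatine kinase, read 9.73 and 9.57 in growth medium and 9.48 and 9.17 in osteoinductive medium in flight and 7.98 and 7.77 in growth medium and 8.04 and 8.06 in osteoinductive medium on the ground-based arrays, a difference of 1.52 (SE 0.12). Eno3, the muscle enolase, read 9.07 and 8.99 in growth medium and 8.76 and 8.49 in osteoinductive medium in flight against 7.99 and 8.13 in growth medium and 7.95 and 8.08 in osteoinductive medium, a difference of 0.79 (SE 0.10). Pgam2, the muscle phosphoglycerate mutase, read 8.14 and 7.83 in growth medium and 7.94 and 7.61 in osteoinductive medium in flight against 7.43 and 7.14 in growth medium and 7.46 and 7.30 in osteoinductive medium, a difference of 0.55 (SE 0.12).

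**Figure D3:**
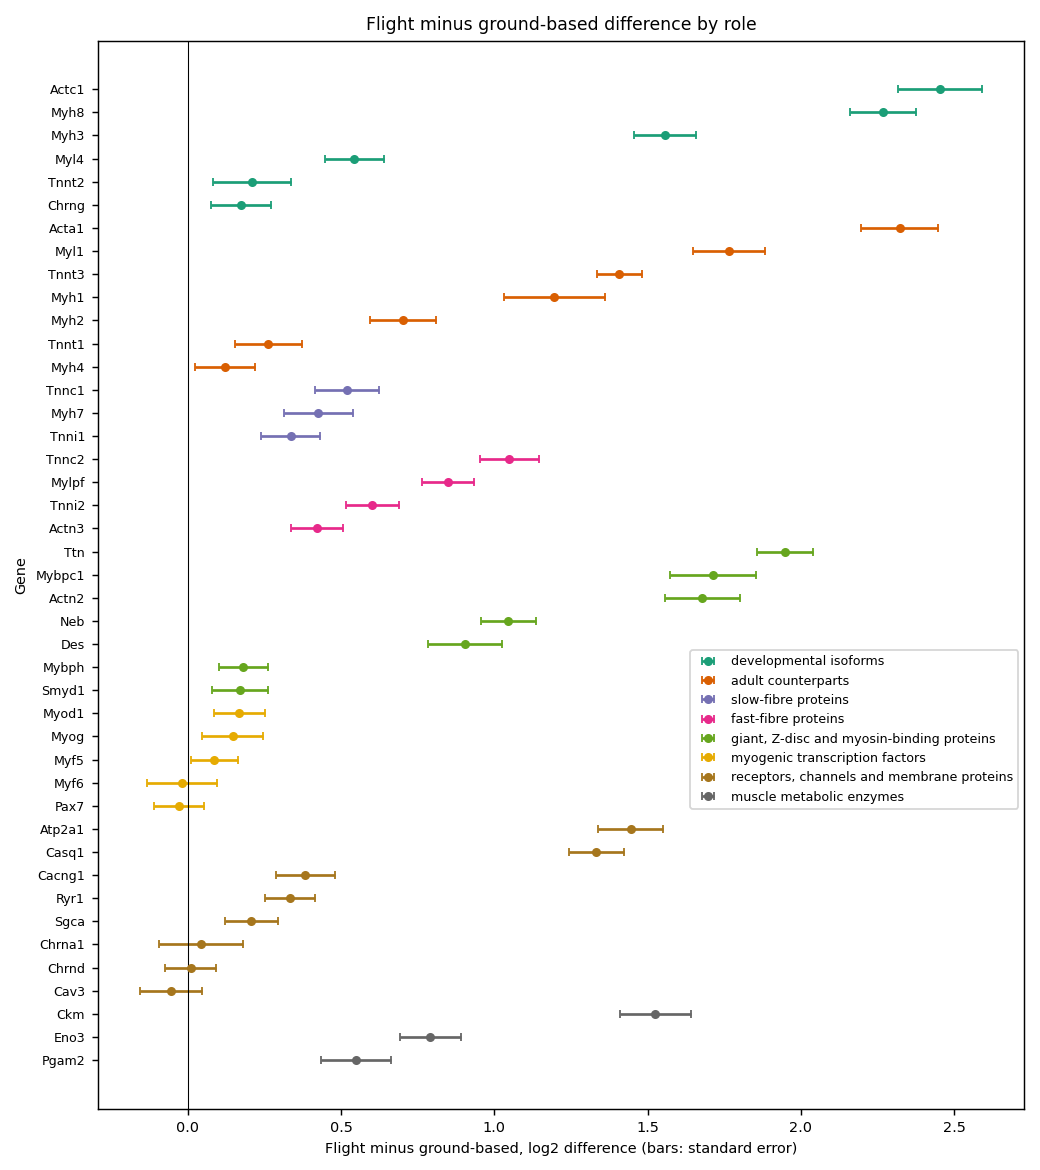
Flight minus ground-based difference (log2, points) with its standard error (bars) for the 43 genes, grouped and coloured by role and ordered by size within a role. Actc1, Acta1 and Myh8 lie above 2, and the 5 myogenic factors lie between −0.03 and 0.17.

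Microgravity and the centrifuge share flight and hardware, and their comparison asks what gravity adds within flight. Of the 43 genes, 28 read higher in microgravity than on the centrifuge in both media and 4 lower in both, where 23.6% and 25.9% of all genes did so. The median difference over the 43 was 0.15, from −0.16 to 0.43, and that over all genes −0.02. None of the 43 and 0 of all genes passed limma's adjusted threshold, 0% of those tested, while 8 of the 43 and 2120 of all genes, 10.6%, had an unadjusted p under 0.05. The smallest p-values belonged to Actc1, with a difference of 0.39 (95% interval 0.10 to 0.68, adjusted p = 0.366), to Tnnc1, with 0.34 (95% interval 0.07 to 0.60, adjusted p = 0.383), and to Myh7, with 0.35 (95% interval 0.07 to 0.63, adjusted p = 0.393). Relative to the ground-based mean of the same medium, the median elevation of the 43 genes was 0.71 in microgravity and 0.54 on the centrifuge in growth medium, and 0.57 and 0.37 in osteoinductive medium. The flight contrast that was in view when the list was chosen counts the centrifuge arrays as flight. Nothing is therefore read from the elevation on the centrifuge. Neuronal markers, described further on, moved in the same order, with medians of 2.46 and 2.22 in growth medium and 2.28 and 2.02 in osteoinductive medium, and their part in the difference was not tested.

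The comparison of media asks what osteoinductive medium did to these genes, and 2 of the 43 passed, where 8.45% of all genes did. In growth medium Chrna1 read 7.11 in microgravity, 7.15 on the centrifuge, 7.48 in the ground units and 7.07 in the dishes. In osteoinductive medium it read 8.65, 8.94, 8.31 and 8.83 in the same order, above every growth-medium array, and the difference was 1.48 (95% interval 1.18 to 1.78, adjusted p = 6.46e-05). The remaining receptor subunits did not pass, with differences of 0.03 (95% interval -0.15 to 0.21) for Chrnd, 0.07 (95% interval -0.15 to 0.29) for Chrng, -0.39 (95% interval -0.65 to -0.14, adjusted p = 0.0582) for Chrnb1 and 0.05 (95% interval -0.14 to 0.24) for Chrne. Myh8 was lower in osteoinductive medium, with a difference of -0.39 (95% interval -0.59 to -0.19, adjusted p = 0.0218), and its adjusted p was between 0.0510 and 0.0879 when any 1 array other than the 2 ground-unit arrays was left out. The median over the 43 genes was −0.07, with 29 lower and 14 higher, against a median of 0.01 over all genes.

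**Figure D4:**
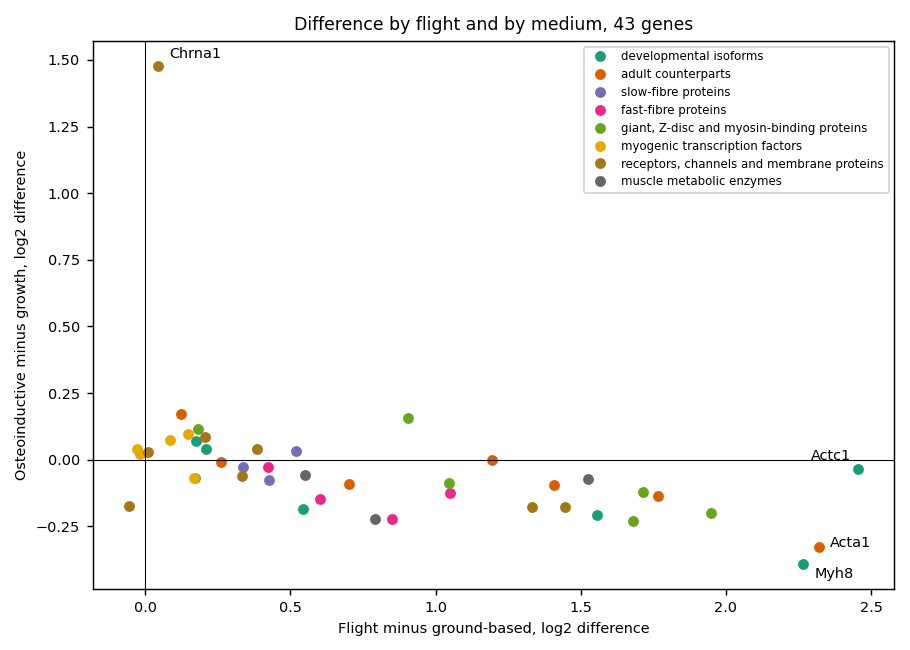
Osteoinductive minus growth difference (log2) of the 43 genes set against their flight minus ground-based difference (log2). Chrna1 stands alone at 1.48 for medium with 0.04 for flight, and Myh8 lies at −0.39 for medium with 2.27 for flight.

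The flight difference was smaller in osteoinductive than in growth medium for 37 of the 43 genes, where this held for 54.5% of all genes. The median flight difference of the 43 was 0.58 for growth medium and 0.50 for osteoinductive medium. The flight by medium interaction of limma passed for none of the 43 and 0 of all genes, with 6 of the 43 and 842 of all genes, 4.22%, at an unadjusted p under 0.05. Myl1 had the smallest p among the 43, with an interaction of -0.63 (95% interval -0.99 to -0.27, adjusted p = 0.865), followed by Acta1 with -0.55 (adjusted p = 1.00) and Myh3 with -0.44 (95% interval -0.81 to -0.06, adjusted p = 1.00). In the dishes and the ground units, which differ in culture vessel, no member passed. None of the 43 and 0 of all genes passed in ground minus laboratory, with 2 of the 43 and 480 of all genes, 2.41%, at an unadjusted p under 0.05. The smallest p-values were those of Actc1, with a difference of 0.35 (95% interval 0.06 to 0.64, adjusted p = 1.00), of Tnnt1, with 0.28 (95% interval 0.01 to 0.56, adjusted p = 1.00), and of Myh4, with -0.27 (95% interval -0.54 to 0.01, adjusted p = 1.00). Of the 43 genes, 13 read higher in the ground units in both media and 8 lower in both, where 21.7% and 33.2% of all genes did.

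Further genes of muscle, listed apart from the 43, moved in part with them. This list and the other companion lists below were also chosen with earlier results of these arrays known. Their flight calls and adjusted p-values are therefore a description and no support. Of 44 measured further skeletal muscle genes, 17 rose and 1 fell in flight at limma's adjusted threshold, beside 11.6% and 16.2% of all genes, and their median difference was 0.19. Myoz1, a calcineurin-binding Z-disc protein, rose by 1.01 (adjusted p = 3.55e-05), with flight values of 8.51 and 8.14 in growth medium and 8.25 and 8.11 in osteoinductive medium and ground-based values of 7.43 and 7.06 in growth medium and 7.33 and 7.17 in osteoinductive medium. Klhl41, which stabilises thin filaments, rose by 0.95 (adjusted p = 3.97e-05) and the Z-disc protein Myot by 0.83 (adjusted p = 1.02e-05). The single fall was that of Chrnb1, the beta subunit of the acetylcholine receptor, at -0.44 (adjusted p = 0.0111). Parvalbumin Pvalb, a calcium buffer of the fastest fibres, stayed dim, at 6.40 to 6.56 in flight and 6.28 to 6.48 on the ground-based arrays. The difference of Myoz1, the highest of the list, was below those of 15 of the 43 genes.

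Upstream of the contractile genes the picture was mixed. The counts stand beside 11.6% of all genes passing as higher in flight and 16.2% as lower, and with so few genes nothing is read from them. Of 9 progenitor and fusion genes 2 rose and 2 fell, namely Eya1, a transcriptional cofactor, at 0.47 (adjusted p = 0.00137), Mymk, the fusion protein myomaker, at 0.42 (adjusted p = 0.00639), Met, the receptor that guides migrating progenitors, at -0.67 (adjusted p = 0.00294), and Six4 at -0.53 (adjusted p = 0.00199). Of 6 partners of the myogenic factors, Mef2c rose by 0.73 (adjusted p = 9.44e-05) and the E-protein Tcf3 and Mef2d fell, at -0.25 (adjusted p = 0.0387) and -0.22 (adjusted p = 0.0429), calls that were lost on leaving out any of 6 and 7 of the 8 arrays. Mef2c read 9.85 and 9.76 in growth medium and 9.40 and 9.08 in osteoinductive medium in flight and 9.03 and 8.94 in growth medium and 8.54 and 8.64 in osteoinductive medium on the ground-based arrays, without overlap, and it is also expressed in neurons and other cells. Of 11 inhibitors of the myogenic factors 3 rose, namely Id4 at 0.81 (adjusted p = 1.59e-04), Id2 at 0.67 (adjusted p = 6.17e-04) and Hey1 at 0.58 (adjusted p = 0.00299), and 2 fell, Snai2 at -0.58 (adjusted p = 0.00518) and Twist1 at -0.33 (adjusted p = 0.0180), the latter lost without the growth-medium dishes, the osteoinductive dishes or osteoinductive microgravity.

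Markers of other tissues moved on the same arrays, and their part in the differences of the 43 genes was not tested. These lists too were chosen with earlier results known, so their calls describe the arrays. Of all genes, 11.6% passed as higher in flight and 16.2% as lower. All 10 neuronal markers rose in flight, also with any 1 array left out, with a median difference of 2.24, led by Stmn2 at 4.30 (adjusted p = 9.56e-12), Gria2 at 3.32 (adjusted p = 4.06e-08) and Dcx at 2.97 (adjusted p = 5.78e-10). Their summed intensity was 2739 to 3790 on the ground-based arrays and 8370 to 12638 on the flight arrays. Of 7 lung epithelial markers 4 rose, Sftpc at 4.06 (adjusted p = 8.29e-05), Scgb1a1 at 2.07 (adjusted p = 0.0170), Slc34a2 at 1.72 (adjusted p = 0.0350) and Epcam at 0.49 (adjusted p = 0.0194), with sums of 859 to 931 and 1734 to 13223. The lung signal was uneven, with a median elevation of 3.22 in osteoinductive microgravity and of 0.71, 0.34 and 0.38 for growth microgravity, growth centrifuge and osteoinductive centrifuge, whereas the median of the 43 genes was highest in growth microgravity. Leaving out 1 array gave 1 to 6 risen lung markers, 1 without growth microgravity or the osteoinductive dishes and 6 without osteoinductive centrifuge. On the ground-based arrays 4 of 10 neuronal and 4 of 7 lung markers stayed below the olfactory yardstick on all 4 arrays. On the flight arrays 0 of either list did so.

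Heart muscle shares several of the 43 genes, among them Actc1, Tnnt2, Myl4, Myh7, Tnnc1, Actn2, Ttn and Des, and this list is not complete. Of 18 further heart markers 3 rose, Ryr2 at 0.63 (adjusted p = 2.23e-04), Myl7 at 0.39 (adjusted p = 0.0253) and Myh6 at 0.34 (adjusted p = 0.0444), and none fell. Of these 3, Ryr2 alone kept its call with any 1 array left out. For the heart list and those that follow, 11.6% of all genes passed as higher in flight and 16.2% as lower. Nothing is read from a count near these shares. Leaving out 1 array gave 1 to 7 risen heart markers, 7 without growth centrifuge and 1 without growth microgravity, either dish array or the osteoinductive ground units. Their sums of 2514 to 2765 on the ground-based arrays and 2732 to 3164 in flight overlapped. The cardiac factor Nkx2-5 differed by 0.16 (adjusted p = 0.201) and the natriuretic peptide Nppa by 0.28 (adjusted p = 0.107), and neither passed. Of 10 smooth muscle genes none rose and 2 fell, Acta2, smooth muscle actin, at -1.65 (adjusted p = 5.41e-06) and Smtn at -0.51 (adjusted p = 5.26e-04). Acta2 read 10.63 and 10.99 in growth medium and 10.87 and 10.19 in osteoinductive medium in flight and 12.25 and 12.25 in growth medium and 12.43 and 12.34 in osteoinductive medium on the ground-based arrays. Col1a1, the main collagen of bone and stroma, was bright on every array, at 12.56 to 12.77 in flight and 12.56 to 12.66 on the ground-based arrays. It was named after its values were seen, and 1 gene does not establish the identity of the cells. Of 9 stromal markers Eng rose by 0.80 (adjusted p = 0.00368), and Pdgfrb, Vim, Cxcl12 and Col1a2 fell, at -0.56 (adjusted p = 0.00231), -0.49 (adjusted p = 0.00110), -0.33 (adjusted p = 0.0165) and -0.26 (adjusted p = 0.0257), of which Col1a2 did not pass without any of 6 of the 8 arrays and Cxcl12 without either growth-medium ground-based array. Of 5 blood markers Cd68, a macrophage gene, fell at -0.24 (adjusted p = 0.0491), a call that held only with growth centrifuge left out or with all 8 arrays.

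**Figure D5:**
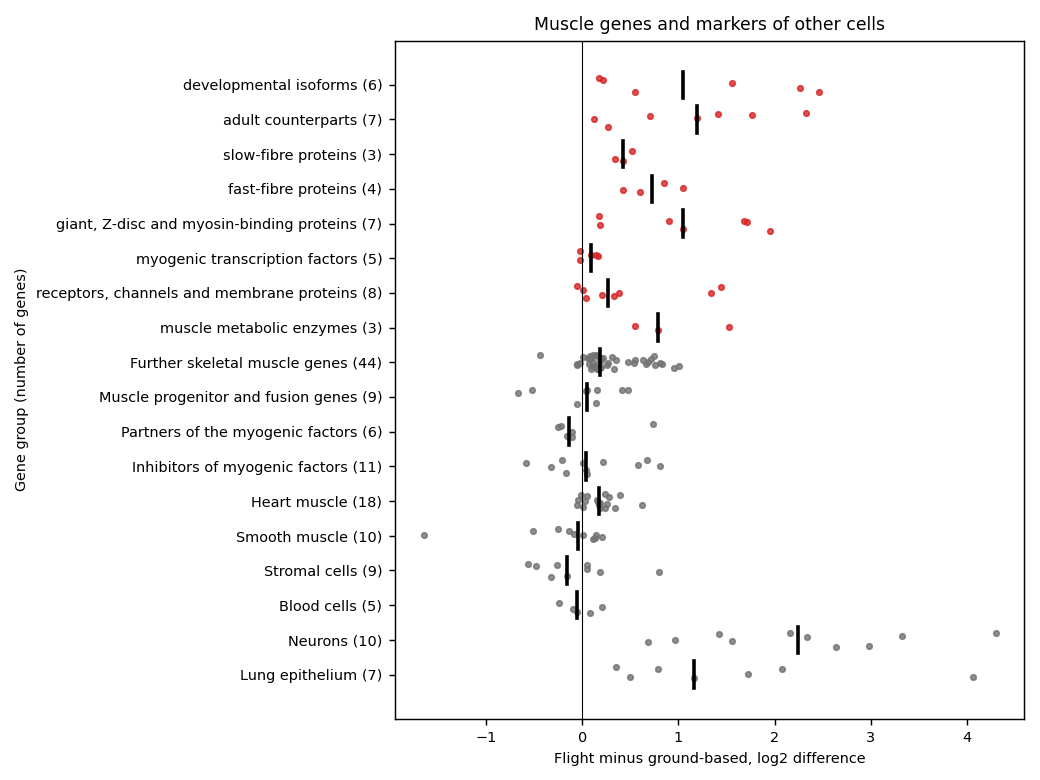
Flight minus ground-based difference (log2) of every gene of the 8 roles (red) and of each companion list (grey), with a bar at each group's median. Neuronal markers reach 4.30 and lung markers 4.06, the 43 genes reach 2.46, and the heart list reaches 0.63.

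Over the whole series, 35557 probe sets were deposited, of which 21789 name 1 gene, and the array median intensity was 180.9 to 196.4. Each medium and condition has 1 array, and the flight fit counts what separates microgravity from centrifuge, and ground units from dishes, as error. The number of arrays limits the precision of every value above, and 7 of the 43 genes had a mean below the 40th percentile of all probe sets.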

How the data were processed

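The authors deposited 1 linear intensity for each of 35557 probe sets and 8 arrays, and RMA and GCRMA are named, without versions or roles, per the submitters' processing notes. No source used here gives a genome build. Log2 of the deposited values was used without further scaling. Of the probe sets, 21789 name 1 gene, 1621 several and 12147 none, and the brightest probe set stood for a gene that had several, which left 19938 genes. Of the identifiers 21698 matched RefSeq GRCm38.p6, and 0 symbols were updated.

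Tests used limma 3.58.1 in R 4.3.3, two-sided, with Benjamini-Hochberg adjustment over all 19938 genes within each of 5 comparisons and a threshold of 0.05, without a filter. Flight was fitted with medium (5 residual degrees of freedom), medium and condition together (3), and flight by medium as an interaction (4). Standard errors, p-values and 95% intervals are limma's moderated ones, which also use the spread over all genes. The pipeline was also run on simulated arrays with known differences, and the outcome is not reported here. The 43 genes and the companion lists were chosen with earlier results of these data known. Per-array values are given for isoforms, myogenic factors and, in each other role, the 2 largest and the smallest difference. In companion lists the 3 largest differences past the threshold are named, and every gene of a count of 5 or fewer. Elsewhere every member past the threshold is named, or the 3 with the smallest p. Pvalb, Mybpc2, Chrne, Nkx2-5, Nppa and Col1a1 were named after their values were seen. Alternatives were quantile normalization, a filter at the 40th percentile, 32 added before log2, the mean of a gene's probe sets, no term for medium, and leaving out each array; doing so for the companion lists, and the alternatives for Chrna1 and Myh8 by medium and for members without per-array values, were chosen after seeing the data. Of the listed companion genes 8 had no single-gene probe set and were not analysed here.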

Additional observations from a re-analysis of the deposited data

Results flagged for a closer look

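Each of the 43 genes was checked for a single array that stands apart within the 4 flight and within the 4 ground-based arrays, 86 groups in all. In 2 of them, 2.33%, the gap to the nearest array was over Dixon's 95% critical value, where chance gives about 1 in 20. For Chrng, the growth-medium centrifuge array read 7.07, with the nearest flight array at 7.39 and a gap of 0.876 of the range. For Ryr1, the growth-medium microgravity array read 7.63, with the nearest flight array at 7.40 and a gap of 0.928 of the range. The arrays within such a group differ in medium and condition.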

How the results depend on the processing

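The flight differences of all 43 genes, and those of Chrna1 and Myh8 by medium, held their direction and their side of the threshold in 470 recomputed results, were no longer past it in 11, newly past it in 2 and turned in sign in 14. The flight differences were not recomputed gene by gene with the filter or with no term for medium. Because the 43 genes were chosen with the flight contrast in view, their flight calls here describe the processing only. Nothing is read from whether such a call held. With no term for medium the genes called in the flight comparison went from 5533 to 3602. With only genes above the 40th percentile the further skeletal muscle genes called went from 18 to 10, since dim genes were left out. With 32 added before log2 the median of the adult counterparts went from 1.20 to 0.90, an addition that shrinks differences of dim genes. Leaving out 1 array gave 3706 to 7383 genes called for flight, 728 to 1464 for medium against 1684 with all arrays (728 without either centrifuge array), 0 to 95 for microgravity minus centrifuge (95 without growth microgravity, 5 without osteoinductive microgravity), 0 to 1 for ground minus laboratory (1 without the growth-medium dishes) and 0 to 27 for the interaction (27 without osteoinductive centrifuge), and 1 to 2 of the 43 genes for medium. The sign turned for 5 genes near 0: Chrnd under quantile normalization, at −0.0844, and on leaving out 1 array, over -0.0322 to 0.0628, Chrna1 over -0.0972 to 0.163, Cav3 over -0.145 to 0.0162, Pax7 over -0.0674 to 0.0138 and Myf6 over -0.103 to 0.0874. Tnni1 did not pass under quantile normalization (0.24, adjusted p = 0.0801 in limma) or without growth microgravity (0.30, 0.0612), the growth-medium dishes (0.26, 0.0900) or the osteoinductive ground units (0.30, 0.0710), nor Myh7 without the growth-medium dishes (0.39, adjusted p = 0.0533), and Chrng and Tnnt1 passed without the growth-medium centrifuge array. The cause was not tested. Chrna1 kept its rise with medium in all alternatives, from 1.30 to 1.70. The number of arrays and the dim signal of Myh4, Myf5, Myog, Myf6 and Chrnd limit what could be seen.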
